A study of Mus musculus with 12 samples.

Results

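Colonic adenomas from mice with no functional Tet1 were compared with adenomas from mice with intact Tet1. The Tet1 null group was Tet1-/- Tdg+/+ ApcMin/+ (3 adenomas) and the control group Tet1+/+ Tdg+/+ ApcMin/+ (3 adenomas). All 6 were on C57BL/6J and carried the Min allele of Apc, and the mice were killed at 150 to 160 days. They belong to a series of 12 adenomas, in which the other 6 were heterozygous for the N151A mutation of Tdg, with or without loss of 1 Tet1 allele. Methylation was read at CCCGGG sequences by digital restriction enzyme analysis of methylation. SmaI cuts the unmethylated sites, XmaI then cuts the methylated sites that are left, and the reads of each kind are counted. The sites compared were all autosomal CCCGGG sites with at least 100 reads in each of the 6 adenomas. That rule kept 16880 of 164896 autosomal sites, out of 173449 listed sites in all. Of these, 2838 had reads of 1 state alone (2828 without a methylated read) and 14042 were tested. A requirement of 100 reads in all 12 adenomas leaves 7221 of the tested sites, so 6821 enter only because the depth rule is set on these 6 libraries.

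Tet1 is a dioxygenase that oxidises 5-methylcytosine, the first step of active DNA demethylation, and Tdg is the glycosylase that excises the further oxidised bases. Apc is the tumour suppressor of the Wnt pathway whose loss starts intestinal adenomas, and Min mice carry 1 truncated copy. CpG-rich sequences are mostly unmethylated in normal tissue, many gain methylation in intestinal tumours, and Tet enzymes are known for acting against such gains. The recognition sequence is written CCCGGG on both strands, and the level refers to the CpG in its centre. Positions are those the authors deposited for the mouse build mm9. No gene names or flanking sequences are given, since no genome or annotation of that build was used here.

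The libraries held 16812476, 18527831 and 8213211 reads at CCCGGG sites in Tet1 null adenomas 1, 2 and 3, against 16551619, 16881059 and 12639191 reads in control adenomas 1, 2 and 3. The median depth at tested sites was 794, 881 and 395 reads in Tet1 null and 798, 826 and 606 reads in control adenomas. The unmethylated standard spiked into each library read 0.09 to 1.41% in Tet1 null and 0.38 to 1.47% in control libraries. The methylated standard read 98.9 to 99.2% in Tet1 null and in control libraries alike. Y chromosome sites held 2525 to 3213 reads in Tet1 null 1, Tet1 null 2 and control 1, and 0 to 10 reads in Tet1 null 3, control 2 and control 3. The sexes are therefore unequal in the groups. Separate mice are not stated for the adenomas, so the spread behind each p-value is that among these samples, which may be partly technical. The edgeR test used 1 spread for all sites, so its p-values do not measure the spread at a single site. Whether Tet1 was lost, and what cells each adenoma held, was not checked in these data.

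Loss of Tet1 went with a rise of methylation at 368 sites, and a fall at 4. That is 2.62% and 0.0285% of the 14042 sites tested, or 2.65% in either direction (edgeR quasi-likelihood test, Benjamini-Hochberg adjusted p under 0.05, two-sided). At the sites that rose, the median level was 16% in Tet1 null adenomas and 2.70% in control adenomas. The median rise was 12.4 percentage points, with quartiles of 4.74 and 26.3 points. The rise was at least 10 points at 203 of the 368 sites, at least 20 points at 128 and at least 40 points at 12. At 327 of the 368 sites the lowest Tet1 null value exceeded the highest control value. In these bulk samples, a larger share of cells with methylated DNA and a rise in every cell cannot be told apart. Such a separation upward occurred at 1665 of all tested sites (11.9%), and downward at 158 (1.13%), 13.0% together. Of the 368 sites, 155 had fewer than 100 reads in at least 1 of the 6 heterozygous adenomas.

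**Figure D1:**
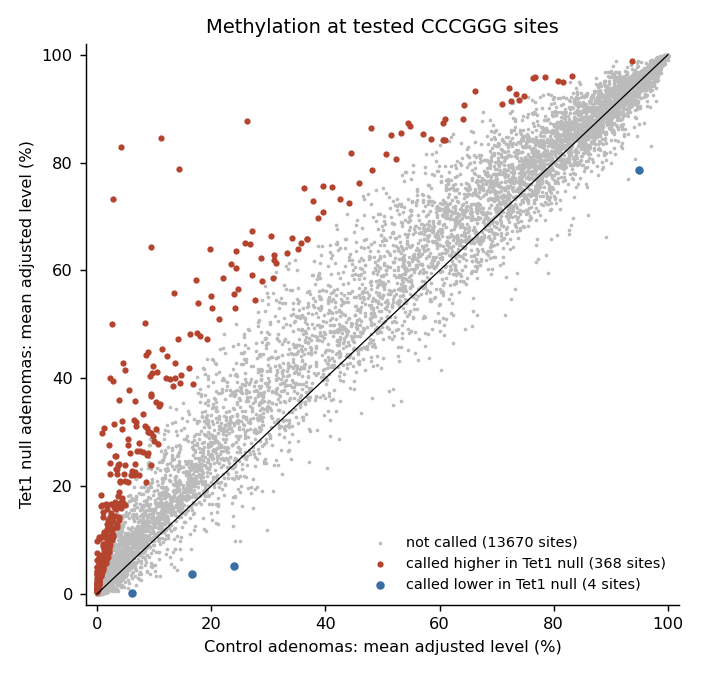
Mean adjusted methylation level (%) of the 3 Tet1 null adenomas (y axis) against the 3 control adenomas (x axis) at each of 14042 tested sites. The diagonal marks equal levels. The 368 sites called higher lie above the diagonal, 230 of them with a control mean below 5%. Many lie within the cloud of uncalled sites, which is itself shifted above the diagonal at intermediate levels. Of 254 tested sites with a mean at least 20 points higher in Tet1 null, 128 were called.

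The whole distribution was shifted as well, as the plot of the group means shows. The mean was higher in Tet1 null adenomas at 9912 tested sites and lower at 4053. The median over all tested sites was 0.467 for the log2 fold change of the methylation odds and 0.153 points for the difference in level. At sites of 20 to 80% (mean of the heterozygous adenomas), the median log2 ratio of methylated to unmethylated reads was 0.17, 0.91 and 0.67 in Tet1 null 1, 2 and 3, against 0.18, 0.086 and 0.086 in control 1, 2 and 3. With each adenoma centred on this value, limma called 74 sites higher and 0 lower, all 74 among the 368, with 1010 sites at an unadjusted p under 0.05 in either direction. A test with site-wise spread, limma on log2 ratios of counts, called 265 sites higher (1.89% of those tested) and 0 lower, of which 244 were among the 368, with 1560 sites at an unadjusted p under 0.05. Without Tet1 null 1 the edgeR count was 560 higher, and without Tet1 null 2 or Tet1 null 3 it was 222 or 162. Without control 2 or control 3 it was 183 or 162. It was 231 with sex as a covariate, 238 with edgeR's bias-adjusted deviances (site-wise spread), 217 with 100 reads required in all 12 adenomas, 110 with X chromosome sites added and 23 with limma on the logit of the adjusted level.

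Levels at these sites were also set side by side within each sex, where at least 1 group has a single adenoma. In the libraries with Y reads, the median level at the 368 sites was 15.6% in Tet1 null adenomas 1 and 2 and 2.47% in control 1. In those without, it was 14.3% in Tet1 null adenoma 3 and 2.59% in control adenomas 2 and 3. At 358 of the 368 sites Tet1 null was higher within both sexes. This held at 5479 of all 14042 tested sites. The 368 were called for that direction in the same adenomas, so the count is a description and no support for the rise.

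Sites named here have the largest differences among called sites with separate groups, at most 1 per run of neighbouring sites. The site with the largest rise lies on chromosome 16 at position 35660659 (mm9). It was methylated at 95.6, 65.1 and 88.3% in Tet1 null adenomas, against 8.34, 3.40 and 1.08% in control adenomas. The groups were far apart, at 83.0% ± 15.9 in Tet1 null and 4.27% ± 3.71 in control adenomas (SD, n = 3 each), and edgeR gave an adjusted p of 2.41e-20. With site-wise spread the adjusted p was 1.61e-04 by limma and 3.43e-05 by edgeR's bias-adjusted deviances. Limma on the logit of the adjusted level gave an adjusted p of 0.163. The site was covered by 111 to 251 reads. In Tet1 null 3, with 111 reads, the exact 95% Clopper-Pearson interval of the raw level was 81.9 to 94.3%. Intervals of this kind cover counting error only, as the labels name no molecular identifiers.

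Position 118138315 on chromosome 3 was at 94.8, 56.3 and 85.1% in Tet1 null adenomas, against 30.2, 4.25 and 8.51% in control adenomas. The lowest Tet1 null value was still above the highest control value, and the difference of means was 64.4 points (edgeR adjusted p = 3.57e-13). On chromosome 18, position 43741702 was at 93.2, 78.7 and 91.4% in Tet1 null adenomas, against 37, 15.8 and 26% in control adenomas (edgeR adjusted p = 1.08e-10). There the lowest Tet1 null value was far above the highest control value. Position 10154587 on chromosome 8 was at 74.3, 52.8 and 65.8% in Tet1 null adenomas, against 14.9, 10.1 and 3.21% in control adenomas (edgeR adjusted p = 5.28e-10). At each of these sites Tet1 null 1 was the highest and Tet1 null 2 the lowest adenoma of the null group.

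Position 109311177 on chromosome 14 was tightly unmethylated in control adenomas, at 2.72, 2.69 and 2.73%. It was at 80, 39.0 and 31.3% in Tet1 null adenomas, so the rise differed widely in size between them (edgeR adjusted p = 1.24e-12, limma adjusted p = 5.93e-04). Position 114433829 on chromosome 8 was at 27.4, 39.8 and 52.8% in Tet1 null adenomas, against 2.09, 2.95 and 2.06% in control adenomas (edgeR adjusted p = 3.34e-08). There Tet1 null 1 was the lowest of its group, and no control exceeded 3%.

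Other sites reached similar levels in all 3 Tet1 null adenomas. On chromosome 9, position 107281178 was at 52.6, 48.0 and 50.4% in Tet1 null adenomas, against 6.21, 14.5 and 4.34% in control adenomas. On chromosome 8, position 72636773 was at 55.7, 60.7 and 58.5% in Tet1 null adenomas, against 18.3, 15.9 and 17.7% in control adenomas. In both, the spread within either group was a small part of the difference between groups, which was 41.9 and 41.0 points (edgeR adjusted p = 2.45e-07 and 4.60e-04). A second site on chromosome 8, position 72612909, was 40.1 points higher, with a mean of 67.3% ± 6.28 in Tet1 null and 27.2% ± 11.2 in control adenomas (edgeR adjusted p = 1.55e-03).

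At some of the named sites the control adenomas themselves differed. On chromosome 14, position 14766131 was at 95.6, 80.3 and 83.2% in Tet1 null adenomas, against 79.5, 11.2 and 53.2% in control adenomas. Control 1 was within 1 point of the lowest Tet1 null value, and limma did not call the site (adjusted p = 0.104). On chromosome 13, position 100671030 was at 66.2, 57.6 and 59.7% in Tet1 null adenomas, against 51.6, 11.1 and 7.57% in control adenomas, with a limma adjusted p of 0.0618. On chromosome 14, position 75856108 was at 74.8, 54.0 and 63.3% in Tet1 null adenomas, against 44.1, 10.2 and 4.89% in control adenomas. In these 3 sites control 1 was the highest control. The remaining 3 of the 15 named rises, at positions 144519106 on chromosome 5, 29957246 on chromosome 7 and 20851201 on chromosome 12, were of 42.3, 39.3 and 39.1 points. Of the 15, limma called 13, limma on centred values 8, and 5 had fewer than 100 reads in some heterozygous adenoma. Tet1 null 1 was the highest adenoma at 11 of the 15 sites.

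**Figure D2:**
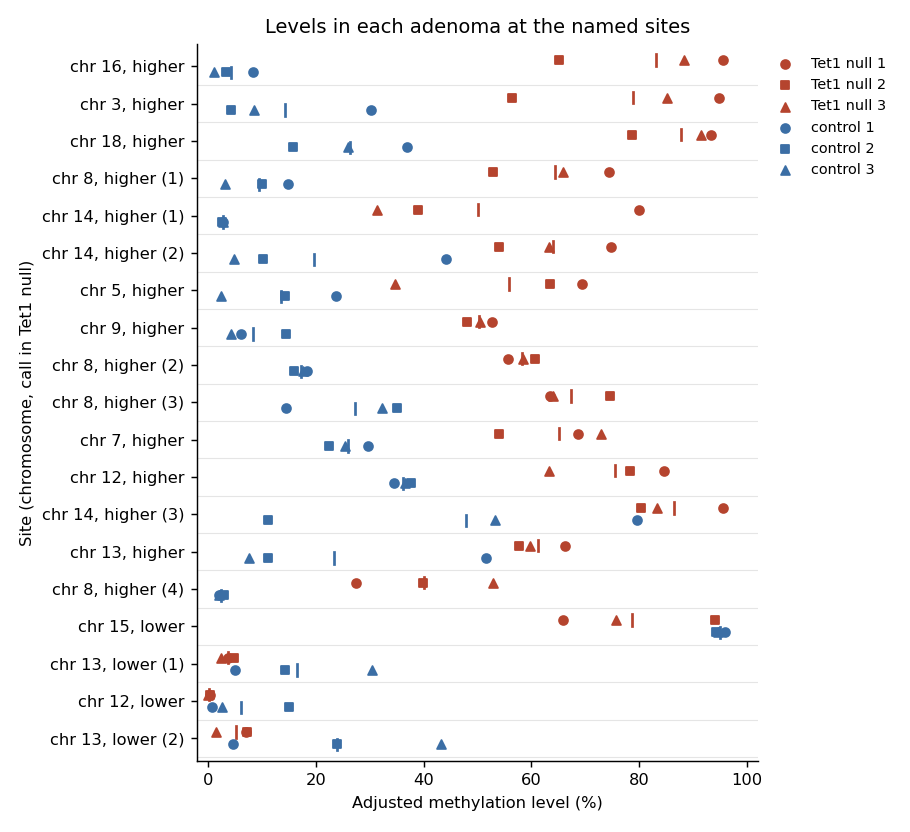
Adjusted methylation level (%) in each adenoma at the 15 named sites called higher and the 4 called lower in Tet1 null adenomas, in the order of the size of the rise and then the falls. Red symbols are Tet1 null and blue symbols control adenomas, the shape gives the adenoma number and the short vertical bars are group means. At the 15 higher sites every red symbol lies right of every blue one.

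The 4 falls, of -5.9 to -18.7 points, were smaller than the 15 named rises. On chromosome 15, position 8731243 was at 65.9, 94.0 and 75.7% in Tet1 null adenomas, against 95.9, 94.3 and 94.6% in control adenomas, so Tet1 null 2 was within 0.3 points of the lowest control value (edgeR adjusted p = 0.0257). Neighbouring positions 117095557 and 117095783 on chromosome 13 had differences of -18.7 and -13.0 points, with control values that themselves spanned 4.65 to 43.2% and 4.99 to 30.5%. At the first of these the groups overlapped. On chromosome 12, position 112513755 had a difference of -5.9 points, at 0.23% ± 0.204 in Tet1 null and 6.13% ± 7.72 in control adenomas, where control 2 alone stood at 15%. Limma called none of the 4 (adjusted p = 0.114 to 0.213), and without control 2 edgeR called 0 sites lower, with 1277 sites at an unadjusted p under 0.05 in either direction.

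Some of the rises were shared by neighbouring sites. Fragments in this assay run between cut sites, so neighbouring sites can be read from the same molecules and are not independent. Tested sites no more than 500 bp apart were joined into 7221 runs, of which 5514 held at least 2 tested sites. A site that rose was present in 290 runs, and 73 of these held at least 2 such sites, 151 of the 368 in all. Of 277 runs with at least 2 tested sites and a rise, 56 had a rise at every tested site and 204 at 1 site alone. The 294 uncalled sites that shared a run with a site that rose had a median difference of 1.29 points (quartiles 0.147 and 8.12), and 257 of them had the higher mean in Tet1 null adenomas.

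The share of sites that rose was highest near another site that rose. It was 28 of 74 sites (37.8%) at over 50 to 200 bp from the nearest such site and 117 of 321 (36.4%) at 200 to 500 bp. It was 6 of 96 (6.25%) at 500 to 2000 bp, 1 of 104 (0.962%) at 2000 to 10000 bp, 25 of 663 (3.77%) up to 100000 bp and 191 of 12784 (1.49%) beyond. No tested site lay within 50 bp of another site that rose. With reads summed over each run, methylation rose in 255 runs (3.53%) and fell in 2 (0.0277%) of 7221 (edgeR adjusted p under 0.05). Of the 255 runs, 197 held a site that rose on its own and 235 held at least 2 tested sites. The count of runs that rose was 485 without Tet1 null 1, 167 without Tet1 null 2, 138 without Tet1 null 3, and 151 and 153 without control 2 and control 3.

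The 5 runs with the most called sites each held 3. The run on chromosome 16 spans positions 35660144 to 35660659, and all 3 of its tested sites rose. Its mean level was 94.3, 64.8 and 81.8% in Tet1 null adenomas, against 7.67, 5.79 and 4.79% in control adenomas. Methylation was thus near complete at these 3 sites, which span 515 bp, in Tet1 null 1 and lower in Tet1 null 2. CpGs outside CCCGGG sequences were not read. The run on chromosome 14 spans positions 109311177 to 109312055 and holds 4 tested sites. Its mean level was 69.5, 24.3 and 14.0% in Tet1 null adenomas, against 9.18, 2.76 and 2.50% in control adenomas. The level fell along this run in Tet1 null 3, from 31.3% at the first site to 3.51% at the last, while Tet1 null 1 stayed at 55.5 to 80%. Its last site, position 109312055, did not pass the test (edgeR adjusted p = 0.112).

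The run on chromosome 5 spans positions 37635043 to 37635712. Its middle site, position 37635258, was at 3.04, 28.9 and 9.07% in Tet1 null adenomas, against 2.47, 0.77 and 2.36% in control adenomas, so Tet1 null 1 was close to control there. Its last site, position 37635712, was highest in Tet1 null 1, at 35.1, 15.4 and 21.0% in Tet1 null against 1.83, 2.63 and 6.75% in control adenomas. On chromosome 8, positions 114433829 to 114434214, the first site was at 40% ± 12.7 in Tet1 null and 2.37% ± 0.505 in control adenomas. The sites that follow it were at 7.15% ± 3.94 and 5.28% ± 2.20 in Tet1 null, against 0.647% ± 0.602 and 0.773% ± 0.863 in control adenomas. In each Tet1 null adenoma the level thus dropped within a run of 385 bp.

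The run on chromosome 6, positions 29477508 to 29478135, changed by small amounts from an almost unmethylated state. Its first site was at 1.07, 2.92 and 1.64% in Tet1 null adenomas, against 0.08, 0 and 0% in control adenomas, on 616 to 1499 reads (edgeR adjusted p = 2.19e-05). The counts of 0 in control 2 and control 3, on 1227 and 1044 reads, allow levels of up to 0.244 and 0.287% (3 counts), which lie below all Tet1 null values at this site. Over the run, levels were 0.23 to 3.87% in Tet1 null adenomas and 0 to 0.47% in control adenomas. The unmethylated standard spanned 0.09 to 1.41% in Tet1 null and 0.38 to 1.47% in control libraries, and its part in rises of this size was not tested.

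**Figure D3:**
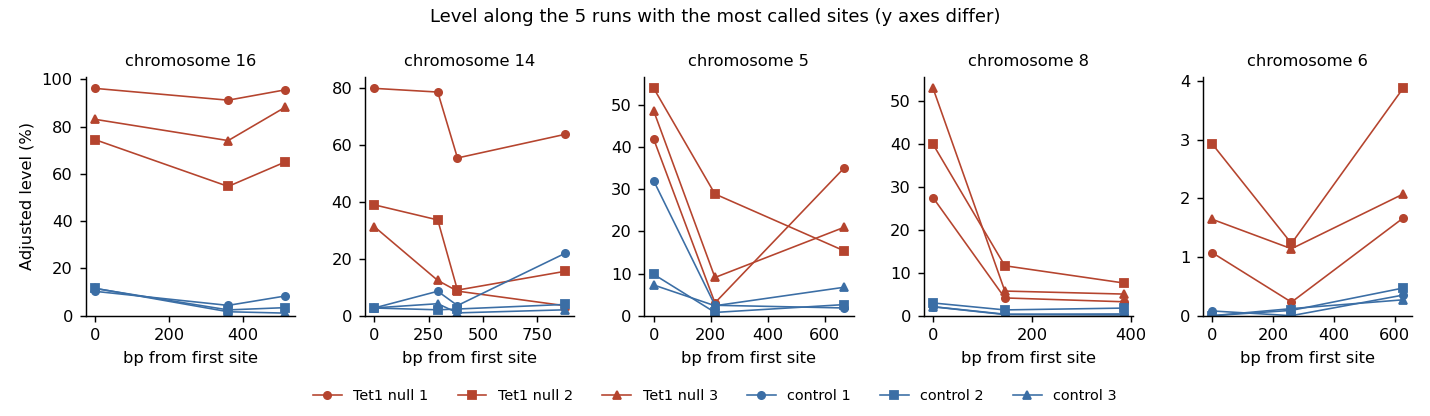
Adjusted methylation level (%) at each tested site along the 5 runs with the most called sites, against distance in bp from the first site of the run. Red lines are Tet1 null and blue lines control adenomas, the shape gives the adenoma number, and the y axes differ between panels. On chromosome 16 all sites are at 54.7% or more in Tet1 null adenomas, while on chromosome 8 the level drops after the first site.

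To compare sites by level without using the adenomas compared, each site was classed by its mean level in the 6 heterozygous adenomas. The class can differ from the control level. The 12 sites above 80% that rose had a median control level of 75.5%. Of sites below 5%, 205 of 7540 rose (2.72%), against 2.62% of all tested sites. Of sites at 5 to 20%, 85 of 1179 rose (7.21%). Of sites at 20 to 80%, 66 of 3048 rose (2.17%), and of sites above 80%, 12 of 2275 rose (0.527%). Limma gave shares of 2.21, 5.51, 0.919 and 0.22% in the same order, and limma on centred values 0.65, 1.87, 0.0984 and 0%. The class of 5 to 20% thus had the highest share under each of the 3 tests. The median rise of called sites was 5.28 points below 5%, 22.2 points at 5 to 20% and 30.9 points at 20 to 80%. The test works on odds, so a rise of few points can pass at low levels and not at intermediate ones.

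The number of neighbouring CCCGGG sites serves as a measure of local site density. Of tested sites, 99.1% had another listed site within 500 bp, while this holds for 29.2% of all autosomal listed sites. The compared sites are therefore mostly those in CCCGGG-dense sequence. Sites with 0 other sites within 500 bp rose at 1 of 131 (0.763%). Sites with 1 other site within 500 bp rose at 266 of 9108 (2.92%) and those with 2 at 81 of 2756 (2.94%). Those with 3, 4 and at least 5 rose at 15 of 1257 (1.19%), 3 of 492 (0.61%) and 2 of 298 (0.671%). Within the class below 5%, sites with 0 or 1, 2, and at least 3 other sites rose at 3.86, 2.35 and 0.956%. Limma gave 2.97, 1.78 and 1.27% in the same order. Of these 3 groups the share was lowest with at least 3 other sites. At 5 to 20% the edgeR shares were 6.77, 11.2 and 2.86% in the same order, with 2 of 70 sites in the last group. At 20 to 80% they were 2.01, 4.03 and 0%, with 0 of 42 sites in the last group. In both classes the share was highest with 2 other sites. Above 80% the shares were 0.549, 0.452 and 0%. The shares are a description, since neighbouring sites are not independent.

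**Figure D4:**
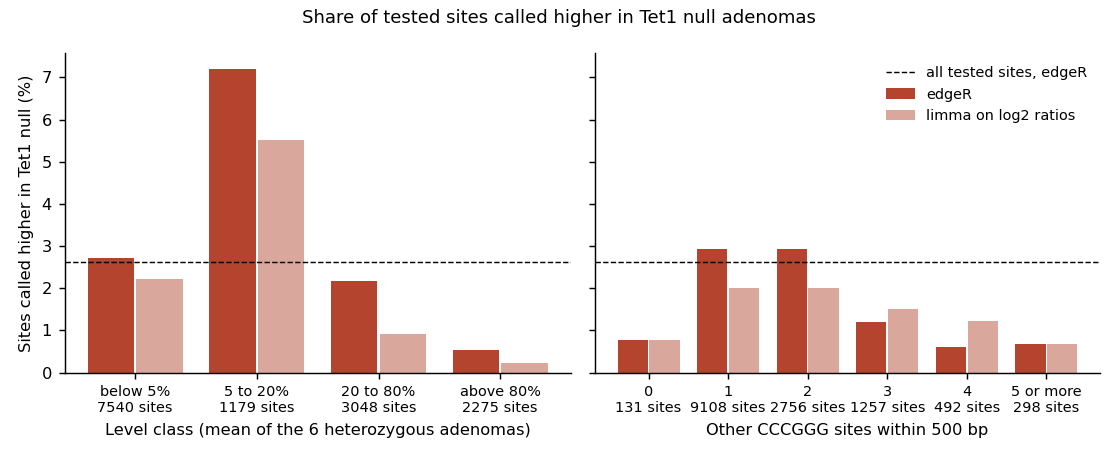
Share of tested sites (%) called higher in Tet1 null adenomas by edgeR (dark bars) and by limma on log2 ratios (pale bars). The left panel gives the level class of the site in the 6 heterozygous adenomas and the right panel the number of other CCCGGG sites within 500 bp, with the number of tested sites under each bar. The dashed line is the share over all tested sites by edgeR (2.62%), which the class of 5 to 20% exceeds at 7.21%.

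Averages over sites were taken for each adenoma, and their two-sided exact permutation p cannot be smaller than 0.10 with 3 against 3. Over all tested sites the mean level was 26.8, 30.3 and 28.9% in Tet1 null adenomas, against 26.5, 26 and 26.6% in control adenomas. Tet1 null 1 lay close to the highest control. The group means were 28.6% ± 1.77 in Tet1 null and 26.4% ± 0.325 in control adenomas (exact permutation p = 0.10, adjusted 0.14 over 7 values tested). The heterozygous adenomas, which were not part of this test, averaged 27.2% (26.8 to 27.8%) with the Tdg mutation alone and 28% (27 to 29.3%) with the loss of a Tet1 allele as well. Both ranges lay above the control adenomas and overlapped the Tet1 null adenomas.

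Sites below 5% were at 0.81, 0.982 and 0.987% in Tet1 null adenomas, against 0.479, 0.503 and 0.476% in control adenomas. Each Tet1 null adenoma was thus well above the narrow range of the control adenomas, by 0.441 points in the mean (exact permutation p = 0.10, adjusted 0.14). The unmethylated standard spanned 0.09 to 1.41% in Tet1 null and 0.38 to 1.47% in control libraries, a range wider than this difference, and its part in the difference was not tested. Sites at 5 to 20% were at 12.8, 18 and 16.6% in Tet1 null adenomas, against 10, 10.2 and 10.8% in control adenomas (exact permutation p = 0.10, adjusted 0.14), and here too the groups did not overlap.

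At higher levels the groups overlapped. Sites at 20 to 80% were at 50.9, 62.1 and 57.1% in Tet1 null adenomas, against 51.1, 49.2 and 51.1% in control adenomas (exact permutation p = 0.30, adjusted 0.30). Tet1 null 1 lay among the control adenomas, while Tet1 null 2 was well above the highest of them. Sites above 80% were at 87.7, 91.2 and 89.9% in Tet1 null adenomas, against 88.5, 87.6 and 88.6% in control adenomas (exact permutation p = 0.30, adjusted 0.30). Without Tet1 null 2 the difference at 20 to 80% was 3.55 points, against 6.24 points with all adenomas, and at sites above 80% it was 0.589 points, against 1.38. Without Tet1 null 2 it was 1.45 points over all sites, against 2.27. The heterozygous adenomas averaged 52.7% with the Tdg mutation alone and 55.4% with the loss of a Tet1 allele as well at 20 to 80%, and 89.9 and 90.3% in the same order above 80%. The classes were formed on these heterozygous adenomas. The differences below 5% and at 5 to 20% stayed between 0.41 and 0.499 and between 4.35 and 6.99 points with any 1 adenoma left out.

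**Figure D5:**
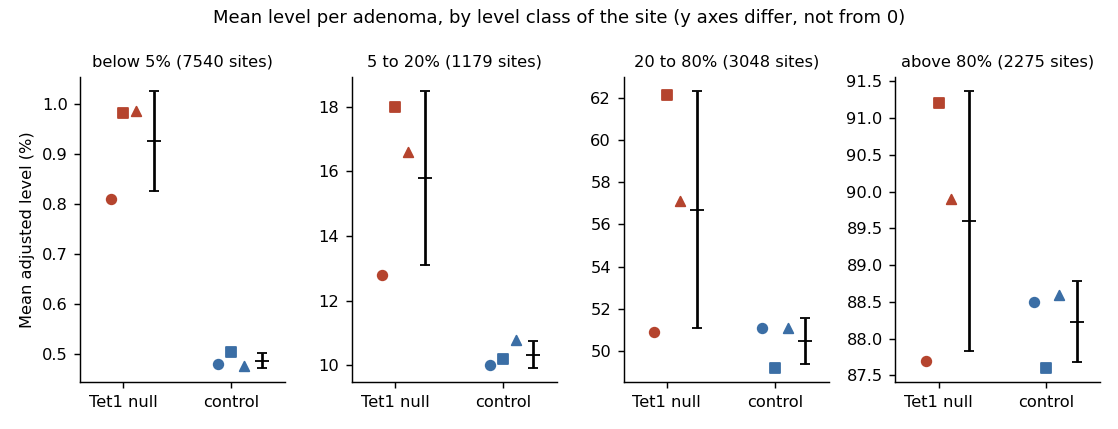
Mean adjusted level (%) of each adenoma over the sites of each level class, with Tet1 null adenomas left and control adenomas right. Symbols give the adenoma number, and the bar beside them is the mean ± SD (n = 3). The y axes differ and do not start at 0. The groups are apart below 5% and at 5 to 20%, and Tet1 null 1 (circle) lies within the control range at 20 to 80%.

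At the 368 sites that rose, the 3 Tet1 null adenomas were close in their median level over sites, though not at each site. The median was 12.4, 15.6 and 14.3% in Tet1 null adenomas, against 2.47, 2.62 and 2.31% in control adenomas. Tet1 null 1 was the highest of the 3 at 101 sites, Tet1 null 2 at 136 and Tet1 null 3 at 131, while Tet1 null 1 was the lowest at 189. By class, the medians at sites below 5% were 4.70, 7.16 and 5.83% in Tet1 null adenomas, against 0.84, 0.77 and 0.70% in control adenomas. At sites of 20 to 80% they were 73.0, 65.5 and 70.2% in Tet1 null adenomas, against 38.3, 32.4 and 32.2% in control adenomas. Tet1 null 1, which was at the control level over that class as a whole, had the highest median at its called sites. The call favours sites where Tet1 null 1 was high, so this rank is a description. The median SD at the 368 sites was 4.37 points among Tet1 null and 0.922 points among control adenomas. Tet1 null had the larger SD at 303 of the 368 sites. Over all tested sites the median SD was 0.86 points among Tet1 null and 0.6 points among control adenomas. The call favours low control levels, where an SD in points is bound to be small. The SDs at the 368 sites are thus a description.

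The sites were called for high levels in Tet1 null and low levels in control adenomas. That by itself tends to put other adenomas below Tet1 null and above control adenomas, so the heterozygous values there are a description. Their medians at the 368 sites were 2.71, 2.33 and 2.87% in the adenomas with the Tdg mutation alone and 4.51, 2.95 and 4.34% in those that also lacked 1 Tet1 allele. The values with the Tdg mutation alone overlapped the 2.31 to 2.62% of the control adenomas. Those with the loss of a Tet1 allele lay above them. At the 205 sites of the class below 5%, the medians with the loss of a Tet1 allele were 1.62, 1.03 and 0.82%. The last of these lay within the 0.7 to 0.84% of the control adenomas. The last library with the loss of a Tet1 allele was shallow, with a median of 109.5 reads at the 368 sites. At position 35660659 on chromosome 16 the level was 2.30% ± 0.991 (n = 3) with the Tdg mutation alone and 8.83% ± 2.76 (n = 2 with at least 20 reads) with the loss of a Tet1 allele as well. At position 43741702 on chromosome 18 it was 7.29% ± 3.87 and 15.5% ± 6.53 (n = 3 each). At 3 of the 15 named rises, a heterozygous adenoma reached at least the lowest Tet1 null level. At position 72636773 on chromosome 8, 1 adenoma with the Tdg mutation alone was at 64.5%, above all 3 Tet1 null adenomas. At position 72612909 on chromosome 8, 1 adenoma that also lacked a Tet1 allele was at 64.3%. At position 20851201 on chromosome 12, 1 adenoma with the Tdg mutation alone was at 68.5%, and 1 that also lacked a Tet1 allele was at 77.3% on 33 reads.

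Changes carried by single adenomas were counted in the same way for each of the 6. A gain was a level at least 15 points above the highest of the other 5, and a loss a level at least 15 points below the lowest. Tet1 null adenomas had 49, 302 and 48 such gains, against 18, 1 and 8 in control adenomas. Each Tet1 null count exceeded each control count (exact permutation p = 0.10, adjusted 0.14), and 271 of the 302 gains of Tet1 null 2 were at sites of 20 to 80%. Tet1 null adenomas had 80, 27 and 15 losses, against 124, 100 and 86 in control adenomas (exact permutation p = 0.10, adjusted 0.14). At sites below 5%, there were 14, 0 and 6 gains in Tet1 null and 5, 0 and 1 in control adenomas.

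Gains shared by all 3 adenomas were one-sided. All 3 Tet1 null adenomas were at least 10 points above the highest control at 109 of 14042 tested sites. At no site were all 3 control adenomas at least 10 points above the highest Tet1 null adenoma. With a distance of 20 points the counts were 27 and 0. Exactly 2 Tet1 null adenomas were at least 10 points above the highest control at 417 sites and exactly 1 at 1129. In the mirror image, exactly 2 control adenomas were at least 10 points above the highest Tet1 null adenoma at 10 sites and exactly 1 at 100. These levels were not centred, and the median log2 ratio at sites of 20 to 80% was higher in Tet1 null 2 and 3 than in any control adenoma. The part of that shift in the shared and single-adenoma counts was not tested. Of 7615 tested sites with a control mean below 5%, 230 rose, against 368 of all 14042 tested sites. Every control value was below 5% at 207 of the sites that rose. Only 8 of these 207 reached at least 20% in every Tet1 null adenoma and 1 reached at least 50% in every one.

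Sites that rose were found on every autosome. By edgeR the share was highest on chromosome 14 (21 of 484, 4.34%) and chromosome 6 (26 of 646, 4.02%). It was lowest on chromosome 19 (5 of 421, 1.19%). By limma it was highest on chromosomes 14 (3.1%) and 18 (2.97%) and lowest on chromosome 13 (0.395%). On chromosome 10, which carries Tet1 and Tdg, 20 of 717 sites rose (2.79%), and on chromosome 18, which carries Apc, 13 of 404 (3.22%). No test was made of these shares, since sites of 1 run are not independent. The share was similar across depths: 65 of 2770 sites with under 200 reads in the shallowest of the 6 libraries rose (2.35%), as did 120 of 4338 with 200 to under 400 (2.77%) and 183 of 6934 with at least 400 (2.64%).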

How the data were processed

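Genomic DNA was cut with SmaI and then XmaI, per the labels' protocols, and the submitters' processing notes list Trim Galore, Bowtie2 and build mm9 (tool versions: not given in the sources used here). Replicates were deposited 1 file each. The extraction protocol names a rat build, while the deposited site names carry mm9. Deposited counts are methylated and unmethylated reads per site. Deposited percent values are a raw level and a level that the authors adjusted for enzyme efficiency with spiked standards, which is used here for levels. The edgeR tests, limma on log2 ratios and the centring used the counts, which carry no such adjustment. Limma on the logit and the permutation tests used the adjusted level. The members and lists were chosen with earlier results of these data known.

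A depth of 100 reads in each of the 6 adenomas and reads of both states were required. The test was edgeR's (version 4.0.16, R 4.3.3), with a depth term for every adenoma, a genotype term on methylated reads, library sizes set equal, and 1 common dispersion (0.0974). The prior degrees of freedom were infinite, so all sites shared 1 spread. Limma 3.58.1 on log2 ratios (2 reads added to each count) lets the spread differ by site. Tests were two-sided with a threshold of 0.05 on the Benjamini-Hochberg adjusted p. Sites below a depth of 100 reads are not described: 322 sites with 90 to 99 reads in the shallowest library had a median difference of 0.535 points, and 361 with 100 to 109 reads 0.543. At 100 reads, a count of 0 allows a level of up to 3% (3 counts). Replicates differed at 26.9 to 42.5% of sites (chi-square p under 0.05), so none looked like a library deposited again. Named sites were up to 15 rises and 10 falls with separate groups and the largest differences, at most 1 per run, then further falls by p and the 5 runs with the most called sites. Tests were run on simulated data first. All simulated sites shared 1 spread, so these data could not show how the tests behave where the spread differs by site. Gene lists and cell type markers were not analysed here for want of an mm9 annotation. Figures were drawn with matplotlib 3.10.9.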

Additional observations from a re-analysis of the deposited data

How the results depend on the processing

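All 368 sites kept a higher estimate in Tet1 null adenomas under every setting in which they were tested. They were called for that direction in the same adenomas, so this is a description and no support for the rise. The number called varied. It was 303 to 388 with depth minimums of 200 and 50 reads, 338 with all 12 adenomas in 1 fit, 341 with sites of 1 state kept, 348 without chromosome 10 and 265 with limma. It was 217 with 100 reads in all 12 adenomas (fewer sites tested), 231 with sex as a covariate, 203 with a difference of at least 10 points, 110 with X chromosome sites included, 74 with limma on centred values and 23 with limma on the logit of the adjusted level. With edgeR's bias-adjusted deviances, added after seeing the data, it was 238, of which 235 were among the 368, and 35 to 166 with each adenoma left out. With each adenoma left out of the fit as reported it was 162 to 560. Sites lower in Tet1 null numbered 4, or 0 with limma, with limma on the logit or on centred values, with X included and with bias-adjusted deviances, 1 with sex as a covariate and 2 with 100 reads in all 12 adenomas. They numbered 0 to 5 with each adenoma left out, and 0 to 3 with bias-adjusted deviances. Runs called higher numbered 218 and 353 with gaps of 1000 and 200 bp, 238 with sex as a covariate and 138 to 485 with each adenoma left out. Runs called lower numbered 2, or 5 with a gap of 200 bp, and 2 to 6 with each adenoma left out. The cause of these differences was not tested.

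With the adenoma number as a replicate block, 108 sites were called higher and 0 lower, and 80 runs higher and 0 lower. The labels do not say that a number marks a shared mouse, litter or day. Same-numbered adenomas deviated from their group means with correlations of 0.111, 0.089 and 0.174 across sites, so the pairing is not established, although each adenoma correlated best with its own number. Single-adenoma losses were 0.446 percentage points of sites fewer in Tet1 null adenomas (value -0.446), -0.871 with a gap of 10 points and -0.0831 with 25 points. At 100 reads a count of 0 allows a level of up to 3%, which is below the gaps of 10 and 25 points used here.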
